A study of Mus musculus with 2 samples.

Results

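OFF cone bipolar barcodes in which no Slitrk6 transcript was counted numbered 149, 111 in the library labelled Muller and 38 in the library labelled MullerControl, out of 23625 deposited barcodes (12316 and 11309). They were chosen by transcript counts alone. A barcode had at least 300 genes, at least 1000 unique molecular identifiers (UMIs, which count captured transcripts) and at most 20% mitochondrial UMIs, which 15837 barcodes met. It had at least 3 UMIs of Grik1, Gsg1, Scgn and Vsx1 together, at most 1 UMI of the ON bipolar genes Grm6, Isl1 and Trpm1 together, little RNA of Müller glia, amacrine cells and cones, and no UMI of Slitrk6. Levels of the genes in these limits are therefore a description and not a finding.

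The study asked whether Müller glia, the support cells of the retina, turn into retinal ganglion cells in vivo. Retinas came from B6.Cg mice with the allele Gt(ROSA)26Sortm9(CAG-tdTomato)Hze, in which Cre recombinase switches on the red protein tdTomato, at 14 weeks of age and 8 weeks after an injection of AAV, a viral vector. All mice carried this allele and received AAV, and the labels do not give the genes carried by either virus or the number of mice. tdTomato-positive cells were sorted, with a positive rate of about 4.9% for test and 10% for control cells, and each group gave 1 library. Muller was read as the test group because the other label is MullerControl. With 1 library per group no test between groups was possible, and all intervals here are 95% intervals that cover counting error only. They are exact for shares of barcodes and for gene levels, and approximate for log2 ratios and ratios of shares.

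Bipolar cells carry the signal of photoreceptors to the inner retina. ON bipolar cells read glutamate through the receptor Grm6 and the channel Trpm1, whereas OFF cone bipolar cells read it through kainate and AMPA receptors, with Grik1 as the main kainate subunit. OFF cone bipolar cells fall into several types, and in mouse retina Erbb4, Nnat and Col11a1 are known as marks of separate types. Slitrk6 encodes a neuronal adhesion protein, and the barcodes without it were described by Erbb4, a neuregulin receptor, Nnat, a small membrane protein, Col11a1, a fibrillar collagen, and Tacr3, the neurokinin B receptor.

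The label was checked against genes outside the selection. Lhx4, a LIM homeobox gene of bipolar cells, had a UMI in 56.8% (47 to 66.1) of the barcodes in Muller and in 68.4% (51.3 to 82.5) in MullerControl. The share in barcodes rich in rod transcripts was 0.947% and 0.314%. Neurod4, a bHLH gene of bipolar cells, was counted in 64% and 65.8% against 6.72% and 1.65% of rods. Fezf2, a zinc finger gene of OFF cone bipolar cells, was counted in 28.8% and 36.8%, against 0.273% and 0 of ON bipolar barcodes. Otx2, a homeobox gene of photoreceptors and bipolar cells, was counted in 59.5% and 63.2%, against 22.3% and 21.5% of rods.

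The lower limit of 3 UMIs was met exactly by 30 barcodes in Muller and 8 in MullerControl, and 62 and 14 further barcodes had 2 such UMIs and stayed outside. Lhx4 stood at 374 and 304 CPM (UMIs of the gene per 1000000 summed UMIs) in the barcodes with exactly 3 and at 139 and 171 CPM in those with 2. Otx2 stood at 392 and 304 CPM just inside the limit and at 213 and 200 CPM just outside. The 4 OFF genes together gave a median of 6 UMIs per barcode in Muller and 11 in MullerControl, and 27 and 4 barcodes were admitted through a single gene.

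The barcodes were deeper in the control library. UMIs per barcode ran from 1042 through a median of 2069 to 5706 in Muller and from 1086 through 3582 to 6709 in MullerControl, with medians of 1250 and 2027 genes. Mitochondrial UMIs were at a median of 5.23% and 5.02%, and the nuclear RNA Malat1 at 6.78% and 3.63%. High doublet scores fell on 21 barcodes (18.9%) and 3 barcodes (7.89%). The libraries shared 40 deposited barcode sequences, none of them among the 149.

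The barcodes formed 1.38% (1.13 to 1.65) of quality-passed barcodes in Muller and 0.489% (0.346 to 0.671) in MullerControl, a ratio of 2.81 (1.95 to 4.06). Set against all OFF cone bipolar barcodes, the shares were 28.1% (23.7 to 32.8) and 25.9% (19 to 33.7), a ratio of 1.09 (0.793 to 1.49). Among OFF and ON bipolar barcodes together they were 5.97% and 6.25%, a ratio of 0.955 (0.669 to 1.36). Both of these last intervals span 1. Rod barcodes formed 14.4% of the Muller library and 32.8% of the control library, and ON bipolar barcodes 18.1% and 5.93%. The tdTomato sort precedes these shares, and its part in them was not tested.

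Erbb4, located on chromosome 1 at 68032186 to 69108059 (GRCm38), was counted in 16 of 111 barcodes in Muller (14.4%, 8.47 to 22.4) and in 13 of 38 in MullerControl (34.2%, 19.6 to 51.4). Thinned to 1000 UMIs per barcode, the shares were 9.01% and 10.5%. Nnat, on chromosome 2 at 157560078 to 157562522, was counted in 29 barcodes (26.1%, 18.2 to 35.3) and 6 (15.8%, 6.02 to 31.3), and after thinning in 20.7% and 7.89%. Col11a1, on chromosome 3 at 114030540 to 114220718, was counted in 9 barcodes in Muller (8.11%, 3.77 to 14.8) and in 0 of 38 in MullerControl, which allows a share of up to 7.89% by the rule of 3 counts and 9.25% by the exact interval. Tacr3, on chromosome 3 at 134829007 to 134934579, was counted in 2 barcodes (1.8%) and 4 (10.5%). None of the 4 genes was counted in 56 barcodes (50.5%) of Muller and 17 (44.7%) of MullerControl. The intervals of the libraries overlapped for each of the 4 genes, and the Erbb4 shares came close at 1000 UMIs per barcode. In barcodes of at least 2500 UMIs, Erbb4 was counted in 10 of 37 (27%, 13.8 to 44.1) and 11 of 23 (47.8%, 26.8 to 69.4).

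Rods, which should lack these genes, give the background. Erbb4 was counted in 0.0861% of rods in Muller and 0 of 2549 in MullerControl, Nnat in 1.46% and 0.392%, Col11a1 in 0.258% and 0.0392%, and Tacr3 in 0 and 0.0785%. Rods had medians of 1609 and 1771 UMIs. In OFF cone bipolar barcodes with Slitrk6, Erbb4 was counted in 2 of 284 and 0 of 109, and Nnat in 63% and 69.7%.

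Few barcodes held UMIs of 2 of the 4 genes, each of which was counted in a minority of the barcodes. Erbb4 and Col11a1, counted in 16 and 9 barcodes of Muller, met in 1 of them. Erbb4 and Tacr3, counted in 13 and 4 barcodes of MullerControl, met in 2. None of the 35 barcodes with Nnat held a UMI of the other 3 genes. Whether the genes met less often than their shares alone would give was not tested.

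**Figure D1:**
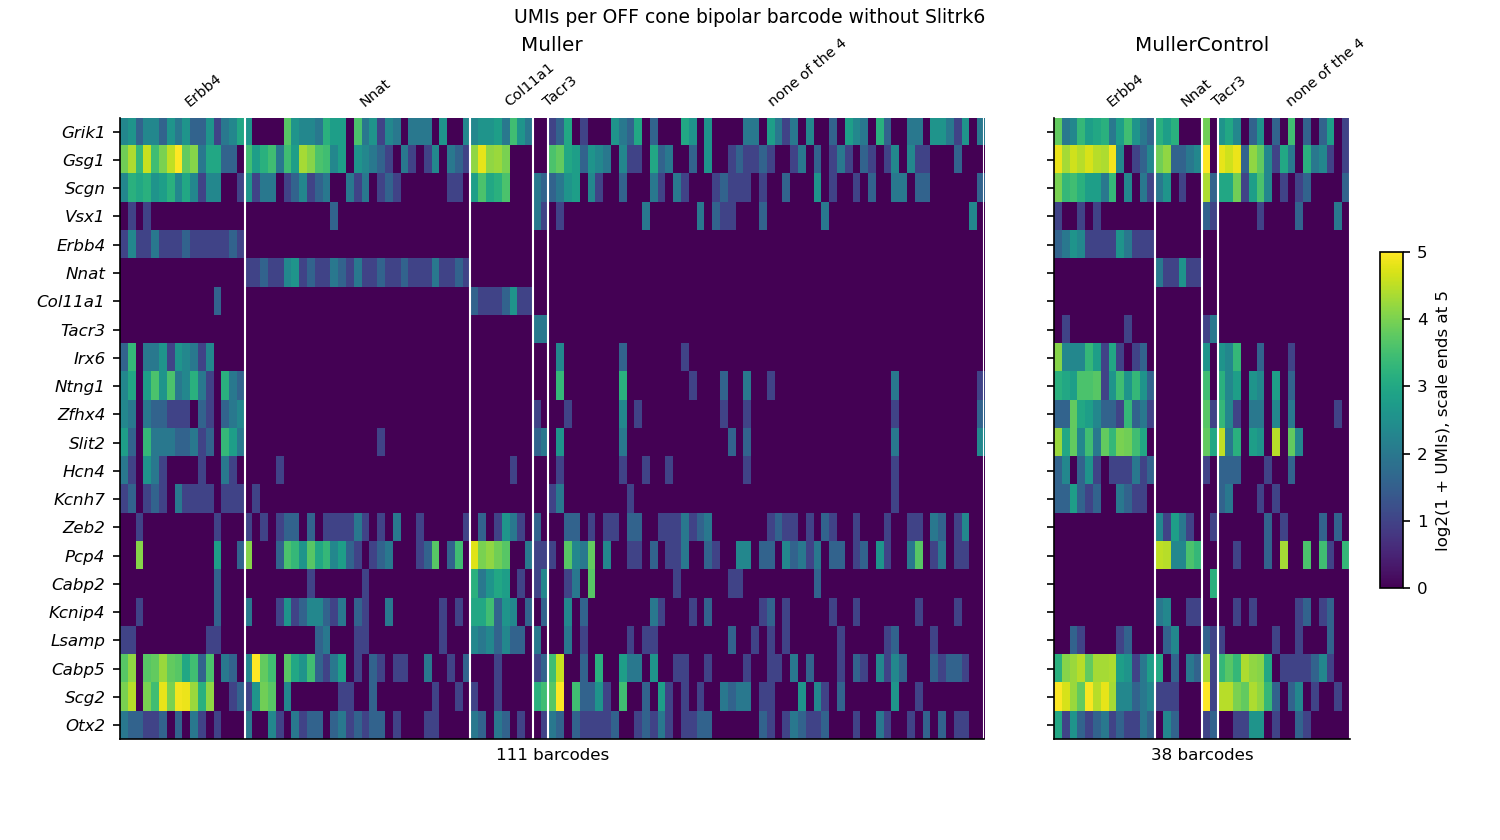
UMIs of genes of the rule, the subtype genes and genes named in the text (rows, colour on a log2(1 + UMIs) scale that ends at 5) in each of the 111 Muller and 38 MullerControl barcodes (columns), split by white lines into barcodes with Erbb4, Nnat, Col11a1, Tacr3 or none of them and ordered by depth. A barcode with Erbb4 and another of these genes stands under Erbb4. Irx6, Ntng1, Zfhx4 and Slit2 together show at least 2 UMIs in 14 of 16 and 13 of 13 Erbb4 columns. They are nearly empty under Nnat and Col11a1, and show UMIs under Tacr3 and in part of the columns with none of the subtype genes. Zeb2 and Kcnip4 show UMIs in 16 and 15 of the 29 Nnat columns of Muller.

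**Figure D2:**
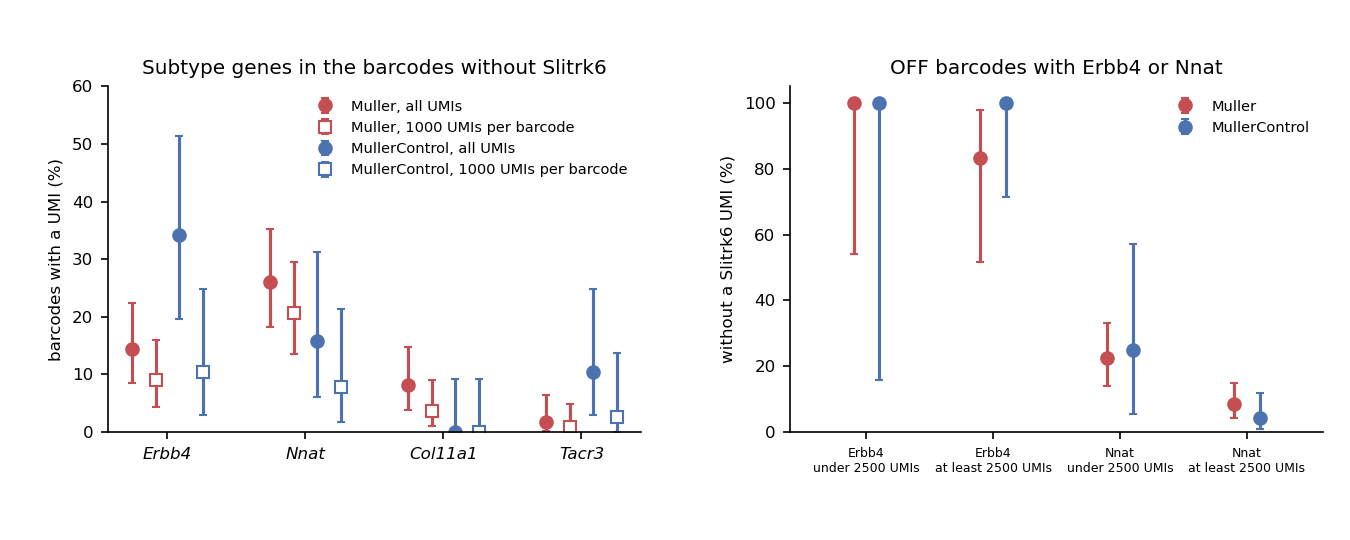
Left, percent of the barcodes of each library with a UMI of each subtype gene, counted (filled circles) and after thinning to 1000 UMIs (open squares). Right, percent of all OFF cone bipolar barcodes with Erbb4 or Nnat that lack a Slitrk6 UMI, below and above 2500 UMIs. Bars are exact 95% binomial intervals. Erbb4 barcodes mostly lack Slitrk6 at both depths, and Nnat barcodes lack it in 22.5% and 25% below 2500 UMIs and in 8.59% and 4.29% above.

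Slitrk6 was missing from nearly all Erbb4 barcodes and from few Nnat barcodes. Of all OFF cone bipolar barcodes with Erbb4, 16 of 18 in Muller and 13 of 13 in MullerControl had no Slitrk6 UMI, and among those of at least 2500 UMIs it was 10 of 12 and 11 of 11. Of those with Nnat, 29 of 208 (13.9%, 9.54 to 19.4) and 6 of 82 (7.32%, 2.73 to 15.2) had none. Below 2500 UMIs the Nnat share was 22.5% and 25%, and at 2500 or more it was 8.59% and 4.29%. Where Slitrk6 was counted it rested on 1 UMI in 34.2% and 24.8% of barcodes. How many Nnat barcodes lack Slitrk6 RNA, rather than a captured copy of it, was not tested.

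Irx6, Ntng1, Hcn4, Kcnh7 and Rnd3 were higher in the barcodes with Erbb4 than in the others. Of 1630 genes compared, 22 (1.35%) were at least 2-fold higher in the barcodes with Erbb4 than in the other barcodes in both libraries, and 37 (2.27%) were at least 2-fold lower. After thinning to 1000 UMIs, where 431 genes could be compared, 13 were higher and 4 lower, and 1 of each was shared with these calls. Barcodes with Erbb4 had medians of 3359 and 4493 UMIs, above those of all 149. Irx6, an Iroquois homeobox gene, had 40 UMIs in the 16 Erbb4 barcodes of Muller (808 CPM) and 7 in the other 95 (32.8 CPM), and 55 against 26 UMIs in MullerControl (1035 and 330 CPM). Ntng1, the axon guidance protein netrin G1, stood at 1535 against 131 CPM in Muller and 1731 against 570 CPM in MullerControl. Hcn4, a pacemaker channel, stood at 364 against 37.5 CPM and 433 against 127 CPM. Kcnh7, an Erg-type potassium channel, stood at 343 against 32.8 CPM and 414 against 88.7 CPM. Rnd3, a small GTPase of the Rnd family, stood at 485 against 46.9 CPM and 546 against 127 CPM. These 5 genes were named because they were higher in both libraries, so that agreement follows from the choice.

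Genes lower in the Erbb4 barcodes included channel and calcium signalling genes. Kcnip4, which binds Kv4 channels, had 3 UMIs in the Erbb4 barcodes of Muller and 94 in the others, and 0 and 17 in MullerControl. Zeb2, a zinc finger repressor, had 2 and 83, and 0 and 23. Kcnma1, the BK potassium channel, stood at 80.8 against 478 CPM and 56.4 against 342 CPM. Plcb4, a phospholipase C, stood at 40.4 against 291 CPM and 18.8 against 203 CPM. Otor, a small secreted protein, had 1 UMI against 70 and 0 against 13. Edil3, an extracellular matrix protein, had 1 against 48 and 1 against 16. Cabp2, a calcium-binding protein, had 2 against 58 and 0 against 8, and these 8 all lay in 1 of 25 barcodes.

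Several genes had no or nearly no UMI in the barcodes with Nnat. Ntng1 had 0 UMIs in the 29 Nnat barcodes of Muller and 104 in the other barcodes, and 0 and 137 in MullerControl. Zfhx4, a zinc finger homeobox gene, had 0 and 41, and 0 and 95. Slit2, a secreted guidance cue, had 1 and 78, and 0 and 225. Irx6 had 0 and 47, and 0 and 81. Hcn4, Kcnh7 and Qpct, a glutaminyl cyclase, were also lower in both libraries, with 1, 1 and 2 UMIs in the Nnat barcodes of Muller and none in MullerControl. In all, 23 of 1630 genes (1.41%) were at least 2-fold lower with Nnat and 6 (0.368%) at least 2-fold higher. Among the 6 were Chd7, a chromatin remodeller, Rtbdn, a retinal riboflavin-binding protein, Rasa2, a Ras GTPase activator, Gngt2, the cone transducin gamma subunit, and Hlf, a bZIP factor. Chd7 stood at 296 against 87.1 CPM and 222 against 96.5 CPM.

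Irx6, Ntng1, Zfhx4 and Slit2, summed because of their values, gave at least 2 UMIs in 14 of 16 Erbb4 barcodes of Muller and 13 of 13 of MullerControl. They gave 2 in 0 of 29 and 0 of 6 Nnat barcodes and in 0 of 9 Col11a1 barcodes. Both Tacr3 barcodes of Muller and all 4 of MullerControl held them, 2 of the 4 also with Erbb4. Among barcodes with none of the 4 subtype genes, 7 of 56 in Muller (12.5%, 5.18 to 24.1) and 8 of 17 in MullerControl (47.1%, 23 to 72.2) held them. Over all barcodes it was 23 of 111 (20.7%, 13.6 to 29.5) and 23 of 38 (60.5%, 43.4 to 76), and after thinning to 1000 UMIs 18% (11.4 to 26.4) and 55.3% (38.3 to 71.4). All 4 genes are among the 8 lowest in Muller over all barcodes, so the difference between libraries in this share restates those counts. In OFF cone bipolar barcodes with Slitrk6 it was 3.52% and 5.5%, and in rods 0.431% and 0.118%. ON bipolar barcodes reached 47.5% and 46.9%, where Ntng1 gave 2764 UMIs in Muller and Irx6 24.

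**Figure D3:**
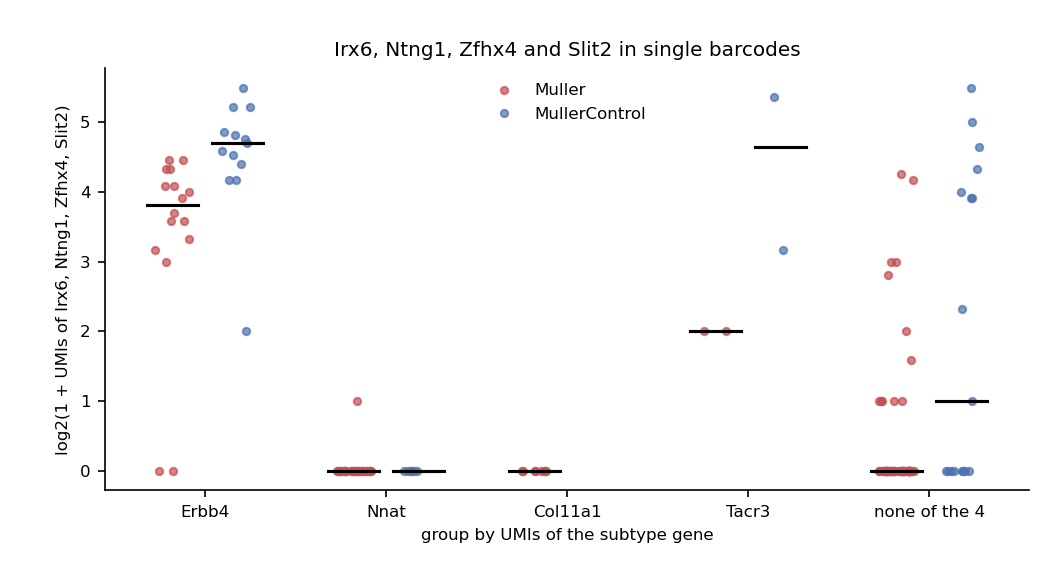
UMIs of Irx6, Ntng1, Zfhx4 and Slit2 together in single barcodes (log2(1 + UMIs)), by subtype gene and library, with black lines at the log2 of 1 plus the median, and horizontal jitter is random. A barcode with Erbb4 and another of the subtype genes is plotted under Erbb4. Of 16 and 13 Erbb4 barcodes, 14 and 13 hold at least 2 UMIs, and of 29 and 6 Nnat barcodes none does.

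For genes higher in the Erbb4 barcodes, and Erbb4 itself, the stretch of 250 bases before the start site is shown where RefSeq lists it on GRCm38.p6 and no annotated exon overlaps it, with Col11a1 beside them as a gene of other barcodes. Of 15 genes looked up, 12 had an entry. In these windows 4 motifs were searched on both strands: TAATTA, a homeobox core, TAATCC, the core bound by Crx and Otx2, ACANNTGT, an Iroquois site, and GGGCGG, the GC box. They occur in 4.84%, 6.25%, 6.31% and 32.7% of all 32851 windows. Capitals mark the GC box or its reverse complement, the single motif found in these windows. The windows are chr1:69108060-69108309 (minus strand) for Erbb4, chr2:63184288-63184537 (minus) for Kcnh7, chr9:58822699-58822948 (plus) for Hcn4 and chr3:114030290-114030539 (plus) for Col11a1, each written 5′ to 3′ on the gene's strand.
Erbb4: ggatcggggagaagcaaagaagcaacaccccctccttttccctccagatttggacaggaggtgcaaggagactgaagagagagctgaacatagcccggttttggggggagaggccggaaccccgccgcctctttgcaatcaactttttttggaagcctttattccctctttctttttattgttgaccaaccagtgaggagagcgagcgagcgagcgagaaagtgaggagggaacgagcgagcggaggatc
Kcnh7: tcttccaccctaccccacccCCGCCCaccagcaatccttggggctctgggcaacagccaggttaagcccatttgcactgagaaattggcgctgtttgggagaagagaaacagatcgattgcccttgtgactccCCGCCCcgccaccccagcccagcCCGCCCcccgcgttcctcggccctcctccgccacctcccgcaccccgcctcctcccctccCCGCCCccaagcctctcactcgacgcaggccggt
Hcn4: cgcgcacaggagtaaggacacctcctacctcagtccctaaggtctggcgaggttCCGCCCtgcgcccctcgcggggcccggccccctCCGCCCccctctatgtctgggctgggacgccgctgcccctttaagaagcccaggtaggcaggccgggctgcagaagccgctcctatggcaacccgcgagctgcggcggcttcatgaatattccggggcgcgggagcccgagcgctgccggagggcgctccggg
Col11a1: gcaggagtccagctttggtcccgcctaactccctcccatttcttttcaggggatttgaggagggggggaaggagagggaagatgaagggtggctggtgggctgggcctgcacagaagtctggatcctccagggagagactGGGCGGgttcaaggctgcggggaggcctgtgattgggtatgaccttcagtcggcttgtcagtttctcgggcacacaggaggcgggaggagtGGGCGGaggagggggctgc
Kcnh7 held 4 GC boxes, Hcn4 held 2, Col11a1 held 2 and Erbb4 held 0. The GC box was thus found before genes of both kinds of barcode. The Hcn4 window ends at 58822948, short of the annotated gene start at 58823412. The bases after it were not found at the beginning of an annotated Hcn4 transcript.

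Barcodes with Col11a1 and no Slitrk6 came from Muller alone, 9 of its 13 OFF cone bipolar barcodes with Col11a1. In MullerControl all 3 OFF barcodes with Col11a1 held Slitrk6. The 9 were barcodes with a median of 3980 UMIs. Of 960 genes compared within that library, 43 (4.48%) were at least 2-fold higher than in the other barcodes and 83 (8.65%) at least 2-fold lower, and the control library had no such barcode to set beside them. Cabp2 stood at 993 against 121 CPM, in 7 of 9 barcodes. Lsamp, a limbic adhesion protein, stood at 683 against 134 CPM, Kcnip4 at 1211 against 252 CPM, and Stmn1, a microtubule destabiliser, at 2546 against 516 CPM. Cabp5, a calcium-binding protein of several bipolar types, had 1 UMI in the 9 barcodes and 349 in the other 102. Prox1, a homeobox gene, and Gnb3, the G protein beta subunit of cones and ON bipolar cells, had 0 UMIs against 104 and 130. Scg2, a granin, had 2 against 389. Cck, the precursor of cholecystokinin, had 14 UMIs in 5 of these barcodes, 435 CPM. The 1 barcode with both Erbb4 and Col11a1 is counted in both groups.

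The 6 barcodes with Tacr3 were too few for a comparison of genes, since the 1 count added to each sum is large beside sums this small. By that measure 77 of 1631 genes (4.72%) were higher and 11 (0.674%) lower in both libraries. Both Muller barcodes had Scgn and Vsx1 and no UMI of Grik1 or Gsg1, whereas in MullerControl 3 of 4 had Grik1 and 4 of 4 had Scgn. Pcp4, a calmodulin regulator, had 2 UMIs in the Muller barcodes and 0 in the MullerControl ones. Slit2 had 5 UMIs in the 2 and 41 in the 4.

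Barcodes with none of the 4 genes had medians of 1656 and 2119 UMIs. Those with at least 2 UMIs of Irx6, Ntng1, Zfhx4 and Slit2 had medians of 1744 UMIs (7 barcodes) in Muller and 4124 (8) in MullerControl, and the others 1605 (49) and 1405 (9). Gnat1, the rod transducin alpha subunit, stood at 1096 and 645 CPM in them, against 263 and 395 CPM with Erbb4 and 591 and 332 CPM with Nnat. Of 1629 genes, 4 (0.246%) were at least 2-fold higher in them in both libraries, and 8 (0.491%) at least 2-fold lower. The 4 were Gnb3 (864 against 239 CPM and 504 against 146 CPM), Gng13, its partner in ON bipolar cells (1207 against 593 and 827 against 340), Cngb1, a rod channel subunit, and Lyst, a lysosomal trafficking protein. In these barcodes Grik1 was counted in 33 of 56 and 11 of 17. High doublet scores fell on 14 of the 56 and 1 of the 17. The part of depth, rod RNA and doublets in this group was not tested.

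The glutamate receptors followed the groups in part. Grik1, chosen by the rule, stood at 1172 and 1486 CPM in barcodes with Erbb4, 1449 and 1219 CPM with Nnat and 1304 CPM with Col11a1. Gria2, an AMPA subunit, stood at 606 and 1129 CPM with Erbb4, 443 and 499 CPM with Nnat and 590 CPM with Col11a1. Gria1, another AMPA subunit, had 0 UMIs in all Erbb4 barcodes of both libraries, and 14 and 2 UMIs with Nnat. Of the transcription factors, Irx5 had 8 and 12 UMIs with Erbb4 and 0 with Nnat and Col11a1. Lhx3, a LIM homeobox gene, had 3 and 11 UMIs with Erbb4 and 2 and 0 with Nnat. Meis2, a TALE homeobox gene, had 27 and 0 UMIs with Nnat and 2 and 0 with Erbb4, and Nfib, a nuclear factor I gene, had 25 and 2 with Nnat, 16 with Col11a1 and 4 and 0 with Erbb4. Zfhx3 had 13 and 17 UMIs with Erbb4, 2 and 3 with Nnat and 14 with Col11a1, which it shared between those groups. Crx, the photoreceptor and bipolar homeobox gene, had 12 and 10 with Erbb4, 20 and 3 with Nnat and 0 with Col11a1.

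Against OFF cone bipolar barcodes with Slitrk6 (284 in Muller and 109 in MullerControl), 63 of 5025 genes (1.25%) were at least 2-fold higher in both libraries and 34 (0.677%) at least 2-fold lower. The genes highest by the smaller of both ratios were Kcnh7, Irx6, Hcn4, Erbb4, Qpct, Ntng1, Cdh8 and Scg2. Irx6 stood at 179 against 3.78 CPM in Muller and 613 against 4.77 CPM in MullerControl. It was counted in 14 of 111 and 17 of 38 barcodes without Slitrk6. Much of the contrast lay in the 16 and 13 Erbb4 barcodes. They held 40 of 47 and 55 of 81 UMIs of Irx6, and 17 of 24 and 22 of 29 of Kcnh7. Of Scg2 they held 206 of 391 and 204 of 376. Cdh8, a classical cadherin, stood at 91.3 against 11.3 CPM and 333 against 26.3 CPM. Scg2 stood at 1488 against 205 CPM and 2848 against 196 CPM. Pcp2, a modulator of G proteins that is abundant in rod and ON bipolar cells, was chosen after its values were seen and stood at 1750 against 249 CPM and 1946 against 62.1 CPM. Lower without Slitrk6 were Pcdh1, a protocadherin, with 1 UMI against 44 and 0 against 23, Nnat (183 against 768 CPM and 90.9 against 633 CPM) and Prkar2b, a regulatory subunit of protein kinase A (114 against 363 CPM and 60.6 against 372 CPM). Gng2, Smad1, Dnaic1 and the unnamed genes Gm15635 and Gm27239 completed the 8.

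Set beside the Slitrk6 barcodes, the barcodes with Nnat gave closer values in some genes and more distant ones in others. Irx6 had no UMI in barcodes with Nnat, and 2 of 284 and 2 of 109 Slitrk6 barcodes had any. Prkar2b had 14 and 4 UMIs with Nnat (207 and 222 CPM) and 1 and 0 with Erbb4, against 363 and 372 CPM in Slitrk6 barcodes. Chd7 with Nnat (296 and 222 CPM) lay above Chd7 in Slitrk6 barcodes (175 and 167 CPM). Pcp2 with Nnat stood at 1493 and 166 CPM against 249 and 62.1 CPM, and Scg2 at 621 and 166 CPM against 205 and 196 CPM. These genes were chosen after their values were seen.

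Against ON bipolar barcodes (1464 and 461), 233 of 5055 genes (4.61%) were at least 2-fold higher in both libraries and 144 (2.85%) at least 2-fold lower. Highest were Esam, an adhesion protein, with 33 UMIs against 0 and 34 against 1, Fezf2 (179 against 0.894 CPM and 182 CPM against 0), Erbb4, Otor, Lrrtm3, a leucine-rich synaptic protein, Hcn4, Irx6 and Kcnh7. Most UMIs of Hcn4, Irx6 and Kcnh7 lay in the Erbb4 barcodes of each library. Lowest were genes of rod and ON bipolar cells. Prkca, the protein kinase C of rod bipolar cells, stood at 41.9 against 814 CPM and 37.9 against 963 CPM. Sebox, a homeobox gene, stood at 49.5 against 844 CPM and 15.1 against 689 CPM, and Tpbg, an oncofetal glycoprotein, had 1 UMI against 1136 and 0 against 332. Gm534, Dab1, Ano3, Tanc1 and Gpc6 completed the 8.

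The libraries were then compared gene by gene over all 149 barcodes, with 262798 and 132045 UMIs behind the sums. Of 667 genes with at least 100 UMIs, 57 (8.55%) were at least 1.5-fold higher in Muller and 73 (10.9%) at least 1.5-fold lower, around a median log2 ratio of -0.10. Here 1 count was added to each sum before the log2 ratio was taken. Fewer barcodes of a type in the sum and less RNA per barcode cannot be told apart in it.

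Of the 8 genes lowest in Muller, Irx6, Ntng1 and Ccdc136 were also among the 22 that were higher with Erbb4 in both libraries. Slit2 had 79 UMIs in Muller and 225 in MullerControl, or 301 CPM (238 to 375) against 1704 CPM (1489 to 1942). Its log2 ratio was -2.49 (-2.86 to -2.12). Zfhx4 stood at 156 and 719 CPM (log2 ratio -2.19), Irx6 at 179 and 613 CPM (-1.77) and Ntng1 at 396 and 1038 CPM (-1.39). Tnnt1, a troponin T, stood at 217 and 719 CPM, Ccdc136 at 236 and 704 CPM, Olfm1, an olfactomedin, at 213 and 545 CPM and Rpl4, a ribosomal protein, at 183 and 447 CPM. Their intervals did not overlap between the libraries.

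The ratios were also taken on each side of the Erbb4 split. Within the 16 and 13 Erbb4 barcodes alone, the log2 ratio of Slit2 was -1.07, of Zfhx4 -0.77, of Irx6 -0.35 and of Ntng1 -0.17. In the 95 and 25 barcodes without Erbb4 they were -3.42, -3.13, -3.19 and -2.10, farther below 0 than over all barcodes. Slit2 and Zfhx4 were thus more than 1.5-fold lower in Muller on both sides of the split, and Irx6 and Ntng1 in the barcodes without Erbb4.

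Highest in Muller were Cnga1, the rod channel subunit (365 and 121 CPM, log2 ratio 1.52), Rcvrn, recoverin (791 and 273 CPM), Kcnip4 (369 and 129 CPM, 1.45), Slc24a3, a sodium-calcium exchanger (350 and 136 CPM, 1.30), Xist, the RNA of the inactive X chromosome (959 and 386 CPM, 1.29), Cacna2d1, a calcium channel subunit (354 and 151 CPM, 1.17), Guca1b, a guanylate cyclase activator (312 and 136 CPM, 1.13), and Pde6g, the rod phosphodiesterase inhibitor (1636 and 750 CPM, 1.11). Cnga1, Rcvrn, Guca1b and Pde6g are photoreceptor genes. With barcodes of high doublet score left out, Cnga1 had a log2 ratio of 0.46 and Pde6g of 0.55, below the 1.5-fold limit. Within Erbb4 barcodes, on 5 and 8 UMIs of Cnga1, 15 and 19 of Rcvrn and 30 and 35 of Pde6g, the log2 ratios were -0.48, -0.22 and -0.11. In barcodes without Erbb4 the ratio was 1.92 for Cnga1 and 1.19 for Pde6g, and Rcvrn had 193 and 17 UMIs there. Xist took 0.0969% of all UMIs of the Muller library and 0.0234% of the MullerControl library.

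RNA of other cells differed between the libraries, in both directions. Of all 4158 genes with at least 20 UMIs, 13.2% were at least 1.5-fold higher in Muller and 16% at least 1.5-fold lower. Of the 13 rod markers 9 were at least 1.5-fold higher in Muller and none lower (median 0.84 on the log2 scale), and together they took 1.43% of UMIs in Muller (0.158 to 13.9% per barcode) and 0.832% in MullerControl (0.178 to 5.52%). No rod marker was at 0. Of 12 Müller glia markers 5 had 20 UMIs, all at least 1.5-fold higher in Muller with a median of 1.62, and together the 12 took 0.089% (0 to 0.741%) and 0.0242% (0 to 0.183%). Kcnj10, Dkk3, Vim and Car14 were at 0 in MullerControl. Of 10 cone markers 4 had 20 UMIs, and 3 of these were at least 1.5-fold lower in Muller (Gnat2, Pde6h and Gngt2) and 1 higher (Cngb3), with a median of -0.92. The 10 took 0.0769% (0 to 0.43%) and 0.135% (0 to 0.642%), and Cnga3 was at 0 in both libraries. The rule held Glul, Rlbp1, Apoe and Slc1a3 together below 0.5% of UMIs, and Arr3, Gnat2 and Pde6h below 0.3%. The values of the Müller glia and cone markers therefore depend on the rule. The part of this RNA in the differences between libraries was not tested.

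The genes of the rule differed little between libraries in Grik1 (1218 and 1219 CPM, log2 ratio -0.01) and more in Gsg1 (2112 and 3256 CPM, -0.63) and Scgn, the calcium-binding secretagogin (830 and 1219 CPM, -0.56). Vsx1, a homeobox gene of OFF cone bipolar cells, stood at 107 and 90.9 CPM. Since at least 3 of these UMIs were asked of each barcode whatever its depth, these ratios depend on the rule.

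Among the lists of genes, counts at least 1.5-fold higher and lower in Muller are set against 13.2% and 16% of all 4158 genes with at least 20 UMIs. Of the genes named here, only Atp2b1 and Cabp5 had at least 100 UMIs over both libraries, and the others rest on fewer counts. Of 23 measured bipolar transcription factors 7 were higher and 6 lower (median 0.16 on the log2 scale). Nfib (274 and 37.9 CPM, on 72 and 5 UMIs) and Six3, a homeobox gene of the eye field (156 and 45.4 CPM, on 41 and 6), were higher. Irx5 (45.7 and 182 CPM, on 12 and 24 UMIs) and Lhx3 (19 and 114 CPM, on 5 and 15) were lower. Of 13 measured OFF subtype markers 6 were higher and 5 lower (median -0.19). Hcn4 stood at 98.9 and 250 CPM, Erbb4 at 87.5 and 220 CPM, Nnat at 183 and 90.9 CPM and Atp2b1, a plasma membrane calcium pump, at 997 and 2189 CPM. Of 22 measured ribbon synapse and release genes 6 were higher and 2 lower (median 0.00). Of 11 measured sodium and calcium channel genes 6 were higher and 1 lower (median 0.88), with Cacna1d, the channel of the ribbon synapse, at 202 and 90.9 CPM. Of 22 measured adhesion and wiring genes 6 were higher and 5 lower, with Plxna4, a semaphorin receptor, at 57.1 and 220 CPM and Cdh8 at 91.3 and 333 CPM. Of 10 measured calcium-binding protein genes 2 were higher and 1 lower, with Cabp2 at 228 and 60.6 CPM and Cabp5 at 1332 and 2196 CPM. The 60 and 8 UMIs of Cabp2 lay in 18 barcodes of Muller and 1 of MullerControl. Of 11 measured GABA and glycine receptor genes 3 were higher and 2 lower, with Gabrb1 at 15.2 and 144 CPM, on 4 and 19 UMIs. Of 11 measured mitochondrial genes none was past 1.5-fold (median 0.01).

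**Figure D4:**
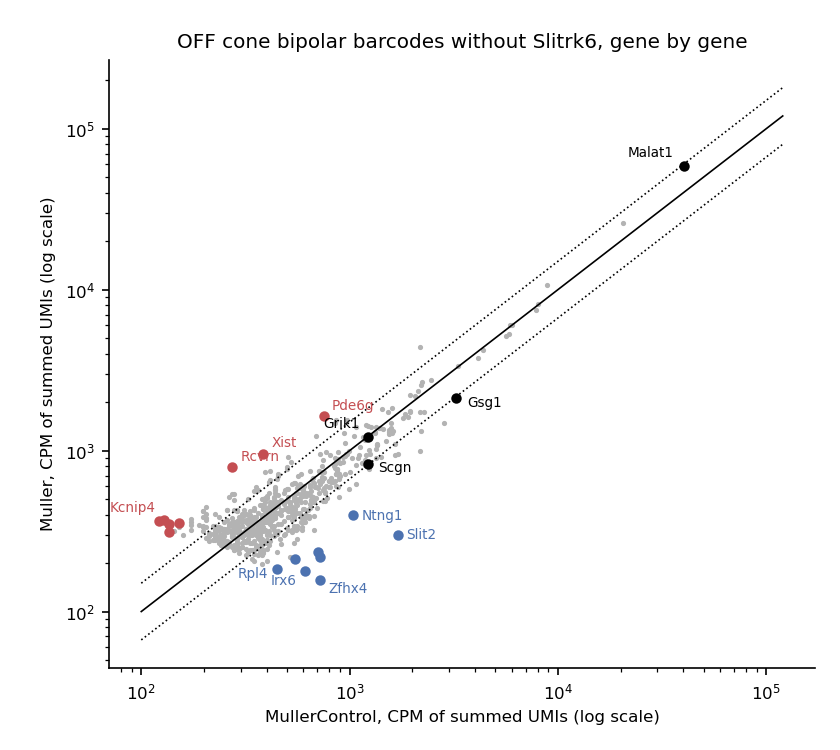
CPM of summed UMIs over the 111 Muller barcodes (vertical, log scale) against the 38 MullerControl barcodes (horizontal, log scale) for the 667 genes with at least 100 UMIs. The solid line is equality and the dotted lines 1.5-fold. Blue marks the 8 genes lowest in Muller, among them Slit2 at 301 and 1704 CPM, red the 8 highest, and black Grik1, Gsg1, Scgn and Malat1.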

How the data were processed

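Values are the deposited raw UMI counts (genes by barcodes), and the file headers name Cell Ranger 4.0.0. Seurat 4.0.5 and the builds mm10 and GRCh38 stand in the submitters' processing notes, with no role given. The smallest deposited barcode total was 500 UMIs in each library, and the libraries held 25622379 and 23549118 UMIs. The members, lists and tests were chosen with earlier results of these data known.

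UMIs were summed over the members of each library and scaled to CPM with exact Poisson intervals, and shares of barcodes have Clopper-Pearson intervals. Intervals of log2 ratios and of ratios of shares are normal approximations. With 1 library per group there was no test, and nothing says whether a library came from separate animals. Genes were named by size. Between libraries these were the 8 highest and 8 lowest log2 ratios among genes with at least 100 UMIs and 50 CPM in 1 library, and up to 3 genes per list. For each split and class comparison they were the 8 with the largest fold in both directions, at least 50 UMIs and 50 CPM on 1 side, at least 2-fold in both libraries. Genes of the subtype, receptor and transcription factor lists with 20 UMIs were also named. The ON bipolar barcodes had at least 3 UMIs of Grm6, Isl1 and Trpm1, and rods at least 5% of UMIs from rod genes. Thinning drew 1000 UMIs from each barcode. Doublets were scored with Scrublet in scanpy 1.11.5. Its threshold marked 2 of 11887 and 0 of 10404 barcodes, which did not work, so the highest 0.8% per 1000 barcodes, 1130 and 866, were removed as an alternative only. The ratio script was tested on simulated counts. Software was Python 3.11.15 with pandas 2.3.3, scipy 1.17.1, numpy 2.4.6 and matplotlib 3.10.9. Results for some genes are not reported here.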

Additional observations from a re-analysis of the deposited data

How the results depend on the processing

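No paired analysis was possible because each group holds 1 library. The membership share was 1% in Muller with at least 4 OFF-gene UMIs. With barcodes thinned to 1000 UMIs before the rule it was 3.01% and 1.26%. Without thinning, the share of OFF and ON bipolar barcodes was 5.97% and 6.25%. The ratio of shares was 1.92 with a minimum of 2000 UMIs, 1.09 of OFF barcodes and 0.955 of OFF and ON bipolar barcodes, where the direction turned. Comparing only Erbb4 barcodes, only barcodes without Erbb4, and the denominator of OFF barcodes were chosen after seeing the data.

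After thinning, Erbb4 was counted in 10.5% and Tacr3 in 2.63% of MullerControl members and Col11a1 in 3.6% of Muller members. Genes higher in Muller numbered 57 of 667 eligible genes (8.55%), 15 of 140 after thinning and 5 of 89 within Erbb4 barcodes. They numbered 30 without doublets, 31 with at least 4 OFF-gene UMIs and 140 with at least 50 UMIs per gene. Genes lower numbered 73 of 667 (10.9%), 24 of 140 after thinning and 4 of 89 within Erbb4 barcodes, and 191 with at least 50 UMIs. The number of eligible genes changes with the setting, so a change in these counts is not a change in share. The same holds for the counts of the splits below. After thinning, the splits gave 13 higher and 4 lower genes for Erbb4, of which 1 and 1 were shared with the unthinned calls, 2 and 4 for Nnat, 197 and 0 for Tacr3, and 30 lower for Col11a1. Without doublets they gave 25 higher and 48 lower for Col11a1 and 46 higher for Tacr3. Against Slitrk6 barcodes thinning gave 18 higher and 12 lower.

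Of 245 values of 35 named genes under alternatives, 213 kept their direction and side of the 1.5-fold limit, 20 dropped below it, 8 passed it and 4 changed direction. The 4 were Cnga1 (-0.48), Rcvrn (-0.22), Pde6g (-0.11) and Gsg1 (0.12), all within Erbb4 barcodes, where the cause was not tested. Members at 1000 to 2000 UMIs hold few counts of genes such as Erbb4, so an absent UMI there does not show an absent transcript.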
